A study of Mus musculus with 10 samples.

Results

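The genes described are 10 subunits of the nucleosome remodelling and deacetylase (NuRD) complex, out of 18901 genes whose RNA was measured in mouse fibroblasts and in cells reprogrammed from such fibroblasts. They are the methyl-CpG-binding domain proteins Mbd3 and Mbd2, the metastasis-associated proteins Mta1, Mta2 and Mta3, the remodelling ATPase Chd4, the deacetylases Hdac1 and Hdac2, and the zinc finger proteins Gatad2a and Gatad2b. They were chosen by name as members of the complex and not by a rule on their values, though earlier results of these data were known. All 10 passed the filter on low values, as did 17075 genes in all. The study examined Mbd3, Mta1, Mta2 and Chd4 as possible regulators of the Netrin-1 gene (Ntn1) during reprogramming, and the question here is how the RNA of the subunits differs between the 5 sequenced lines and between passages.

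The lines were Oct4-GFP mouse embryonic fibroblasts (MEF), which carry a green fluorescent reporter at the Oct4 gene, a line of pre-iPS cells, a single control line of iPS cells, and Netrin-1 derived iPS clones 1 and 2, all from a cross of mf1 and 129 mice. Pre-iPS cells are arrested between the fibroblast and the induced pluripotent stem (iPS) state. The labels state retroviruses for Oct4, Sox2, Klf4 and c-Myc for the Netrin-1 derived cells. The study describes the sequenced control iPS cells as made by retroviral infection with the same factors. It obtained the Netrin-1 derived cells with recombinant Netrin-1 in the medium, whereas control cells were expanded without it. In its pre-iPS cells, the study states, the retroviral transgenes are not silenced. MEF were kept in serum medium, and iPS cells in serum replacement medium with leukaemia inhibitory factor. Each line had 2 libraries. MEF were sampled at passages 2 and 4 and every other line at passages 5 and 25, so the libraries of a line are later and earlier samples of the same cells and not separate derivations. The control was a single line and each Netrin-1 derived clone was a single clone. A difference between such lines and an effect of Netrin-1 cannot be told apart, and p-values measure the spread between these libraries.

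NuRD couples ATP-dependent nucleosome remodelling by a CHD protein to histone deacetylation by HDAC1 and HDAC2. MBD2 and MBD3 occupy the same place in the complex and exclude each other, and MBD2 binds methylated DNA whereas mammalian MBD3 largely does not. MTA proteins are the scaffold that holds the deacetylases and the histone chaperones RBBP4 and RBBP7, and GATAD2A or GATAD2B bridges the MBD protein to the CHD protein. In pluripotent cells the complex is known for tuning genes of self-renewal and for allowing cells to leave that state, and its part in reprogramming has been studied mainly through Mbd3.

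Between 38110410 and 52946856 reads fell on genes in a library, and a unit of the deposited normalised read count stood for about a read (a read was worth 0.888 to 1.18 units). Between the 2 libraries of a line, chi-square per degree of freedom over genes was 36.3 to 50.9 in pre-iPS and the iPS lines and 2.76 in MEF. The MEF libraries thus also differed beyond counting error, but far less than those of the other lines. The summed value of 10 fibroblast markers in the pre-iPS and iPS libraries was 0.729 to 1.28% of the MEF mean, and each of the 10 stayed at 10 or more in every library. The summed value of 10 pluripotency markers was 247 to 260.0 in MEF, 26557 to 28683 in pre-iPS and 43888 to 91295 in the iPS lines, with each marker at 10 or more in every iPS library and 7 to 8 of the 10 in MEF. Of 8 macrophage markers, all 8 reached 10 in both MEF libraries, whereas in pre-iPS and iPS libraries 3 to 4 did. Other cells in a culture add their own NuRD transcripts, and this was not tested. In bulk RNA, fewer cells of a type and less RNA per cell cannot be told apart.

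The promoter region, 250 bases ending at the RefSeq transcription start (GRCm38.p6, 5′ to 3′ on the coding strand), is shown for the 4 subunits the study examined and for Gatad2a, a bridging subunit that differed between the lines. Capitals mark CCAAT or its reverse ATTGG (the CCAAT box) and GGGCGG or its reverse CCGCCC (the GC box), and ATTTGCAT or its reverse ATGCAAAT (the octamer that Oct4 can bind), searched on both strands. No marked motif overlapped another in these 5 windows.
Mbd3 (chr10:80399532-80399781, minus strand): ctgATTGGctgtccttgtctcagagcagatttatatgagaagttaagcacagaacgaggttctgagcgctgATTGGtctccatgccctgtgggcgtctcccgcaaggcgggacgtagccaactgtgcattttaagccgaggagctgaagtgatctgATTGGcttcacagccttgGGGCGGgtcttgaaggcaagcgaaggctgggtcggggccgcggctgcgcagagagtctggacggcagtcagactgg
Mta1 (chr12:113098028-113098277, plus strand): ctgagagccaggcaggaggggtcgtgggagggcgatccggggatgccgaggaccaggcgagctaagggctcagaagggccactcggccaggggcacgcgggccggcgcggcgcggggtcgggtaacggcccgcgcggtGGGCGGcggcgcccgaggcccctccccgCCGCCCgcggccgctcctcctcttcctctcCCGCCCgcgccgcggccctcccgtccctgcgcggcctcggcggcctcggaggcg
Mta2 (chr19:8941670-8941919, plus strand): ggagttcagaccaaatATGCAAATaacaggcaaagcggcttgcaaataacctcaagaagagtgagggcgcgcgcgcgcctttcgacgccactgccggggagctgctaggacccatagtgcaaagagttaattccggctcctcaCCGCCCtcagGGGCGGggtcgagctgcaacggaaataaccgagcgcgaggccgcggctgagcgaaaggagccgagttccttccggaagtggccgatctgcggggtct
Chd4 (chr6:125095731-125095980, plus strand): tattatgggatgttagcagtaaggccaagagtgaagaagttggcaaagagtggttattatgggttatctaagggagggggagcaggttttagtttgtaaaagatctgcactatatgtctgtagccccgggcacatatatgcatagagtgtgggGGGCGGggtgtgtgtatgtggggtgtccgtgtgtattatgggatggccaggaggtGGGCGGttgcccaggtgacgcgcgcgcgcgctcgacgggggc
Gatad2a (chr8:69996385-69996634, minus strand): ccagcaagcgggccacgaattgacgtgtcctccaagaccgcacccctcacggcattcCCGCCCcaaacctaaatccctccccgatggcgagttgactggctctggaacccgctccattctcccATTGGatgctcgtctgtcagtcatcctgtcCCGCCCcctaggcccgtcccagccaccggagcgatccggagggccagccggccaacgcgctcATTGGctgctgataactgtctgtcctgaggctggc

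The Mbd3 window held 3 CCAAT boxes and 1 GC box, the Gatad2a window 2 of each, the Mta1 window 3 GC boxes, the Chd4 window 2 GC boxes, and the Mta2 window 2 GC boxes and 1 octamer. Of 27025 promoter windows of the same length, 34.5% held CCAAT, 32.9% GGGCGG and 1.61% the octamer. Mta1 had 39 CpG pairs, at percentile 98.5 of all windows, beside 24 for Mta2, 18 for Gatad2a, 14 for Mbd3 and 12 for Chd4 and a median of 6 for all. RefSeq also lists a second start for Chd4, whose window held 23 CpG pairs, 1 CCAAT box and 3 GC boxes, and for Gatad2a, whose window held 20 CpG pairs, 3 GC boxes and no CCAAT box. None of these held the octamer. None of the 5 windows held CACGTG (an E-box) or the palindromic NRF1 motif on either strand, which 6.05% and 0.781% of windows held. A match is a description of letters and not of binding, and no binding was measured in these libraries. By the GENCODE M21 annotation of the same build, Mbd3 lay at chr10:80392539-80399550, Mta1 at chr12:113098278-113137206, Chd4 at chr6:125095981-125130591, Mta3 at chr17:83706163-83821516, Hdac1 at chr4:129516104-129542713 and Gatad2a at chr8:69907076-69996384.

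All 10 subunits were expressed in all 10 libraries, with the ATPase, Hdac1 and Mbd3 among the highest per length and Gatad2b the lowest. Per kilobase of annotated exon, the iPS lines had Hdac1 at 3619 ± 300.3 normalised counts (SD, n = 6), Chd4 at 3477 ± 141 and Mbd3 at 3182 ± 179. They were followed by Mta1 at 2493 ± 321, Mta2 at 1949.8 ± 127, Gatad2a at 1536 ± 196, Hdac2 at 1425 ± 114, Mta3 at 943 ± 178, Mbd2 at 533 ± 70.7 and Gatad2b at 123 ± 10.5. The 7 highest overlapped with their neighbours in this order, whereas Hdac2 and Mta3, Mta3 and Mbd2, and Mbd2 and Gatad2b did not overlap. In MEF the order per kilobase opened with Mbd3 at 3114 ± 149 (SD, n = 2), Chd4 at 2601 ± 5.50 and Hdac1 at 2320.0 ± 59.0, and it closed with Mbd2 at 1096 ± 41.9, Gatad2a at 950.1 ± 21.9, Mta3 at 356 ± 1.41 and Gatad2b at 145 ± 5.81. In that order only Mta1, at 2121 ± 86.6, and Mta2, at 2061 ± 47.2, overlapped as neighbours. These levels divide by the whole annotated exon length, so an unused exon lowers a gene's figure. Hdac1 shares 37.8% of its 50-base exon words with other annotated genes, mainly the processed pseudogene Gm10093 on chromosome 17, and its level is uncertain to that extent.

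Over the 10 libraries the highest value of a subunit was 1.44 times its lowest at the median of the 10 genes, and 7 of the 10 ranged by less than 2-fold. The same median was 2.92 over all 17075 genes, of which 31.6% ranged by less than 2-fold, and 2.01 over the 8093 genes with a mean value of at least 1000, of which 49.5% did. Mta2 ranged least, by 1.20 times, followed by Mbd3 at 1.23 times. Mta3 ranged most, by 3.23 times, followed by Mbd2 at 2.63 times and Gatad2a at 2.00 times.

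**Figure D1:**
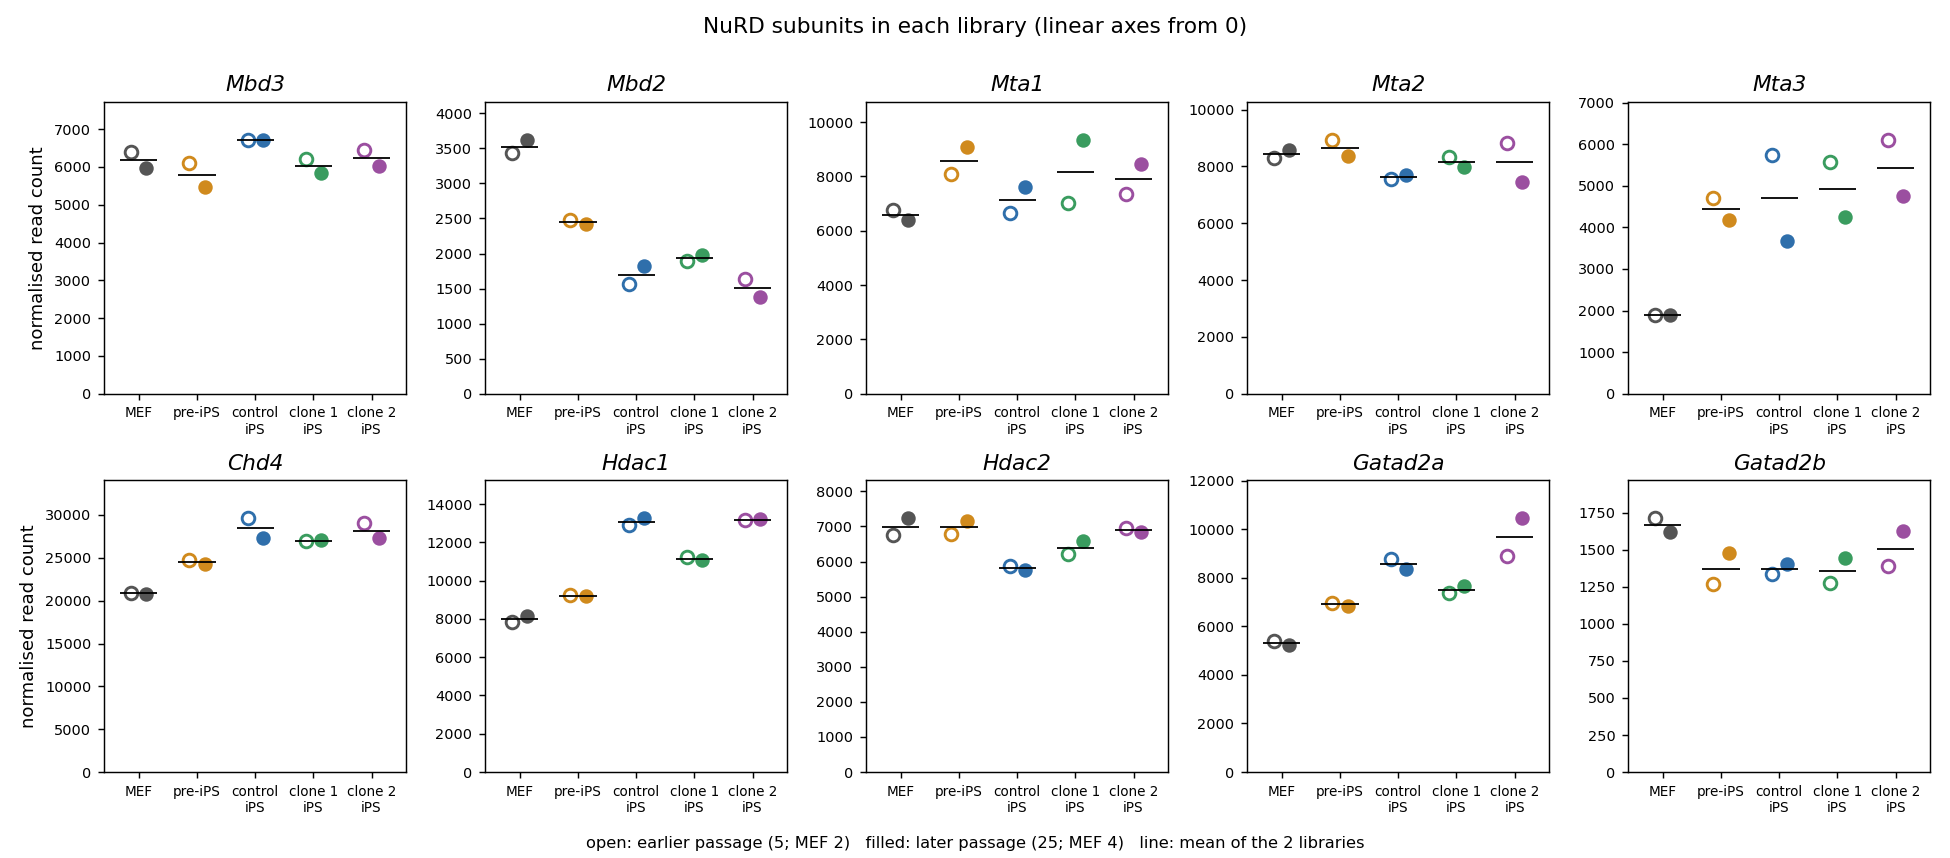
Normalised read count (y axis, linear from 0) of each of the 10 subunits in the 5 lines (x axis), with open points for the earlier passage, filled points for the later passage and a line at the mean of the 2 libraries. Mbd2 is highest and Mta3, Chd4, Hdac1 and Gatad2a are lowest in the MEF libraries, while Mbd3 and Mta2 stay within a narrow band.

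Between MEF and the iPS lines the subunits differed in both directions, most of all Mbd2 and Mta3. Mbd2 was 2.07-fold higher in MEF and Mta3 2.60-fold lower, and these were the only members that passed the test with a change of at least 2-fold. Gatad2a, Hdac1 and Chd4 were lower by 1.61-, 1.56- and 1.34-fold, Gatad2b was 1.18-fold higher, and Mbd3, Mta1, Mta2 and Hdac2 did not pass the test. In all 6 of 10 members passed at an adjusted p under 0.05 (limma on log2(value + 1), Benjamini-Hochberg over all genes), 2 higher and 4 lower. Of all genes 79.3% passed, 37.4% higher and 41.9% lower, and 48.2% with at least 2-fold. The members' share was below that on the deposited scale. With scaling to housekeeping genes 8 of 10 members passed, beside 13810 of 17075 genes, and with quantile normalisation 9 of 10, beside 13452. The median absolute log2 fold change was 0.33 for the members and 0.96 for all genes.

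Among the methyl-CpG-binding subunits, Mbd2 stood at 3427 and 3617 in MEF and at 1376, 1733 and 1981 (lowest, median and highest) in the 6 iPS libraries. The groups did not overlap, and the log2 fold change was 1.05 ± 0.090 (SE, adjusted p = 6.6e-06; exact permutation p = 0.0357, the smallest for 2 against 6 libraries). Mbd3 stood at 6398 and 5979 in MEF and at 5841, 6326 and 6709 in the iPS libraries, with a log2 fold change of -0.030 ± 0.066 (adjusted p = 0.689). Both MEF libraries of Mbd3 fell inside the range of the iPS libraries.

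Among the scaffold subunits, Mta3 stood at 1900.1 and 1889.5 in MEF and at 3664, 5165 and 6097 in the iPS libraries. Every iPS library was above both MEF libraries, with a log2 fold change of -1.38 ± 0.18 (adjusted p = 9.11e-05). Mta1 stood at 6775 and 6395 in MEF and at 6659, 7474 and 9337 in the iPS libraries, which overlap (log2 fold change -0.22 ± 0.12, adjusted p = 0.106). Mta2 stood at 8298 and 8571 in MEF, inside its iPS range of 7465 to 8818.

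The ATPase Chd4 stood at 20888 and 20826 in MEF and at 26969, 27320.0 and 29598 in the iPS libraries, with no overlap and a log2 fold change of -0.42 ± 0.058 (adjusted p = 0.000153). The deacetylase Hdac1 stood at 7849 and 8136 in MEF and at 11058, 13021 and 13249 in the iPS libraries, again with no overlap and a log2 fold change of -0.64 ± 0.050 (adjusted p = 3.75e-06). Its paralogue Hdac2 differed little, at 6758 and 7228 against 5754 to 6969 (log2 fold change 0.14 ± 0.057, adjusted p = 0.0535). The bridging subunit Gatad2a stood at 5397 and 5224 in MEF and at 7369, 8572 and 10449 in the iPS libraries, a log2 fold change of -0.68 ± 0.070 with no overlap (adjusted p = 2.12e-05). Gatad2b stood at 1712 and 1618 in MEF against 1273 to 1625, so that the passage 25 library of clone 2 overlapped with MEF (log2 fold change 0.24 ± 0.097, adjusted p = 0.0465). That call was lost with a range of adjusted p from 0.0576 to 0.241 when any of 6 single libraries was left out. Libraries did not overlap for 5 of the 10 members, beside 80.0% of all genes.

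The small differences between MEF and the other lines moved with the scale, and only some members kept their direction on all 3 scales tried. Scaling to the housekeeping genes Gapdh, Actb, Hprt and Tbp moved the median log2 fold change of all genes between MEF and the iPS lines from -0.087 to 0.30. On that scale 5 members were called higher (Mbd3, Mbd2, Mta2, Hdac2 and Gatad2b) and 3 lower (Mta3, Hdac1 and Gatad2a). Of all 17075 genes, 8423 were called higher and 5387 lower. Chd4, at -0.029, was no longer called. After quantile normalisation only Mbd2 was called higher, Gatad2b was not called (0.064), and the other 8 members were called lower. Of all genes, 6439 were called higher and 7013 lower after that normalisation. Mbd2 was higher and Mta3, Hdac1 and Gatad2a were lower on all 3 scales, with log2 fold changes of 0.80 to 1.44 for Mbd2, -1.59 to -0.99 for Mta3, -0.99 to -0.25 for Hdac1 and -0.97 to -0.29 for Gatad2a. The directions of Mbd3, Mta1, Mta2 and Hdac2 differed between scales. Relative to the median of all genes, Chd4 differed by -0.33 on the deposited scale and on the housekeeping scale, which moves all genes alike, and by -0.88 after quantile normalisation.

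**Figure D2:**
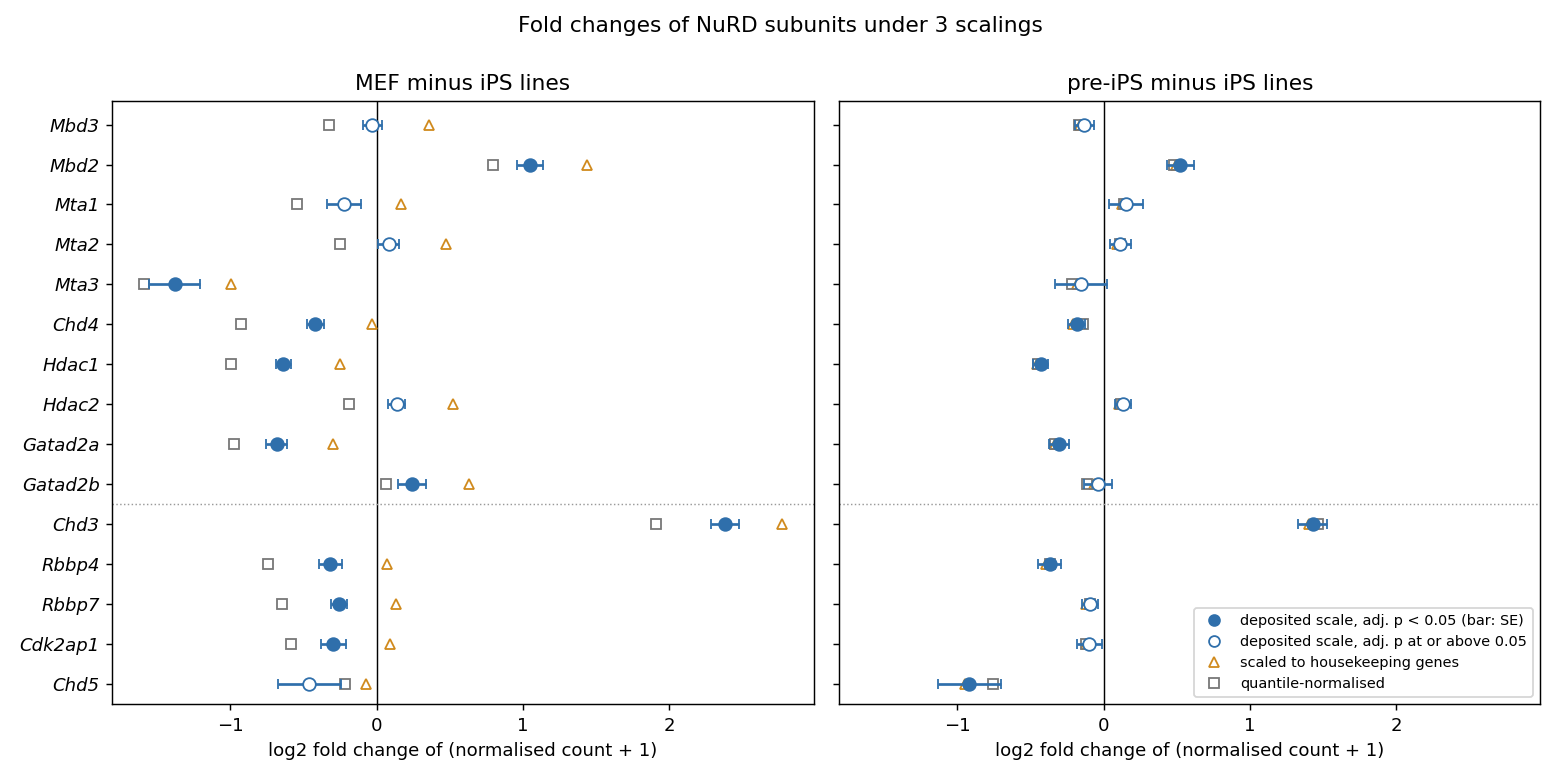
Log2 fold change (x axis) of each subunit, with 10 members above the dotted line and 5 further NuRD subunits below it, for MEF minus iPS lines and pre-iPS minus iPS lines. Round points with SE bars are the deposited scale (filled where the adjusted p is under 0.05), triangles the housekeeping scale and squares quantile normalisation. The 3 scales spread apart in the MEF comparison and nearly coincide in the pre-iPS comparison.

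On the deposited scale the pre-iPS line lay between MEF and the iPS lines for 4 of the subunits that MEF and iPS separated. On the housekeeping scale only Mbd2 of these 4 did so. The share of all genes with pre-iPS in between was not counted, so this position does not set the subunits apart from other genes. Relative to the iPS lines, Mbd2 was 1.44-fold higher in pre-iPS, and Hdac1, Gatad2a and Chd4 were 1.35-, 1.23- and 1.14-fold lower. These 4 of the 10 members passed the test, 1 higher and 3 lower, none with 2-fold, beside 39.6% of all genes (18.7% higher and 20.8% lower) and 16.3% with at least 2-fold. The same 4 had no overlap of libraries, beside 41.8% of all genes. For pre-iPS against iPS, scaling to housekeeping genes left the same split, beside 2895 genes higher and 3818 lower of 17075. Quantile normalisation gave 1 higher and 2 lower, without Chd4, beside 3666 and 3321 genes. MEF minus pre-iPS was 0.21 for Hdac1, 0.18 for Chd4 and 0.037 (not called) for Gatad2a on the housekeeping scale. Of the 4, only Mbd2, at 0.94, stayed between MEF and iPS there.

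Mbd2 stood at 2478 and 2422 in the pre-iPS libraries, above all 6 iPS libraries (highest 1981) and below both MEF libraries (log2 fold change against iPS 0.53 ± 0.090, adjusted p = 0.00224). Hdac1 stood at 9264 and 9177, under the lowest iPS library at 11058 and over the highest MEF library at 8136 (-0.43 ± 0.050, adjusted p = 0.000313). Gatad2a stood at 6967 and 6849.9 (-0.30 ± 0.070, adjusted p = 0.00932), and Chd4 at 24769 and 24306 (-0.18 ± 0.058, adjusted p = 0.0348), each between the MEF and the iPS libraries without overlap. With single libraries left out, Gatad2a ranged from -0.34 to -0.26, and its call was lost without either pre-iPS library. The call of Chd4 was lost (adjusted p from 0.0578 to 0.145) when either pre-iPS library, either MEF library, either clone 1 library or the passage 5 library of the control was left out.

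Mta3 in pre-iPS was near its level in iPS cells, at 4702 and 4173 within the iPS range of 3664 to 6097 (log2 fold change -0.16 ± 0.18, adjusted p = 0.516). It was 2.34-fold above MEF, a log2 fold change for MEF minus pre-iPS of -1.22 ± 0.22 (adjusted p = 0.000905), which on the housekeeping and quantile scales was -0.81 and -1.37. Mbd3, at 6093 and 5458, overlapped with both other states. Mta1, at 8075 and 9067, was above both MEF libraries (MEF minus pre-iPS -0.38 ± 0.14, adjusted p = 0.0399) and inside the iPS range. That call was lost in edgeR (adjusted p = 0.0527) and when any of the 4 MEF and pre-iPS libraries was left out (adjusted p from 0.0518 to 0.182). In all 6 of 10 members passed between MEF and pre-iPS, with Mbd2 higher in MEF at 0.52 ± 0.11 and Mta3, Gatad2a, Mta1, Chd4 and Hdac1 lower, beside 70.6% of all genes, 34.2% higher and 36.4% lower. Libraries of 7 members did not overlap, beside 87.5% of all genes. On the housekeeping scale 7 members were called higher in MEF and 1, Mta3, lower, beside 8070 and 4320 of 17075 genes. Mta1, Chd4, Hdac1 and Gatad2a turned to positive values. Quantile normalisation gave 1 higher and 7 lower, beside 5419 and 6303 genes. Fewer members passed without the pre-iPS passage 5 library or the MEF passage 2 library, as did fewer genes in all. With single libraries left out, the deposited scale gave 0.48 to 0.56 for Mbd2, -1.31 to -1.14 for Mta3 and -0.40 to -0.36 for Gatad2a. It gave -0.46 to -0.29 for Mta1, -0.25 to -0.22 for Chd4 and -0.23 to -0.18 for Hdac1.

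Ratios between paralogues in the same library do not depend on a common scale, and they differed most for Chd4 to Chd3, followed by Mta3 to Mta2. Per kilobase of exon, the Chd4 to Chd3 ratio was 0.953 ± 0.000965 in MEF (SD, n = 2), 2.17 ± 0.215 in pre-iPS and 6.71 ± 1.12 in the iPS lines (n = 6). Chd3, the other CHD ATPase found in NuRD, stood at 23093 and 22991 in MEF, at 11216 and 12661 in pre-iPS and at 3560.2, 4424 and 5369 in the iPS libraries. No library of 1 state overlapped with another. Chd3 made up 51.0% of the summed per-kilobase level of Chd3, Chd4 and Chd5 in MEF, 31.5% in pre-iPS and 13.1% in the iPS lines. Its log2 fold change was 2.38 ± 0.097 for MEF against iPS (adjusted p = 9.47e-08) and 1.43 ± 0.097 for pre-iPS against iPS (adjusted p = 1.88e-05), and it was above 1.9 for the former on all 3 scales.

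The Mbd3 to Mbd2 ratio was 2.67 and 3.02 in the MEF libraries, 3.65 and 3.98 in pre-iPS, and 4.77 to 7.09 in the iPS libraries, with no overlap between the states. The values of Mbd3 itself overlapped between the 3 states. The Hdac1 to Hdac2 ratio was 1.49 ± 0.0327 in MEF, 1.72 ± 0.0752 in pre-iPS and 2.55 ± 0.307 in the iPS lines. The Gatad2a to Gatad2b ratio was 6.53 ± 0.110, 10.4 ± 1.24 and 12.4 ± 0.999 in the same order, with an overlap between pre-iPS (up to 11.2) and the iPS libraries (from 10.9). Mta3 relative to Mta2 was 0.173 ± 0.00464 in MEF, 0.395 ± 0.0150 in pre-iPS and 0.483 ± 0.0812 in the iPS lines, and Mta3 supplied 7.85%, 14.6% and 17.5% of the summed Mta level. Mta1 relative to Mta2 was 1.03 ± 0.0656 in MEF, 1.31 ± 0.168 in pre-iPS and 1.28 ± 0.196 in the iPS lines, so that pre-iPS lay inside the iPS range, and the iPS libraries (1.10 to 1.54) stood just above MEF (0.984 and 1.08). These ratios are descriptions with no test. Reads of Hdac1 may be split with its pseudogenes, and those of Gatad2b with an antisense transcript that overlaps it by 247 bases, since the library kit does not mark strand.

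**Figure D3:**
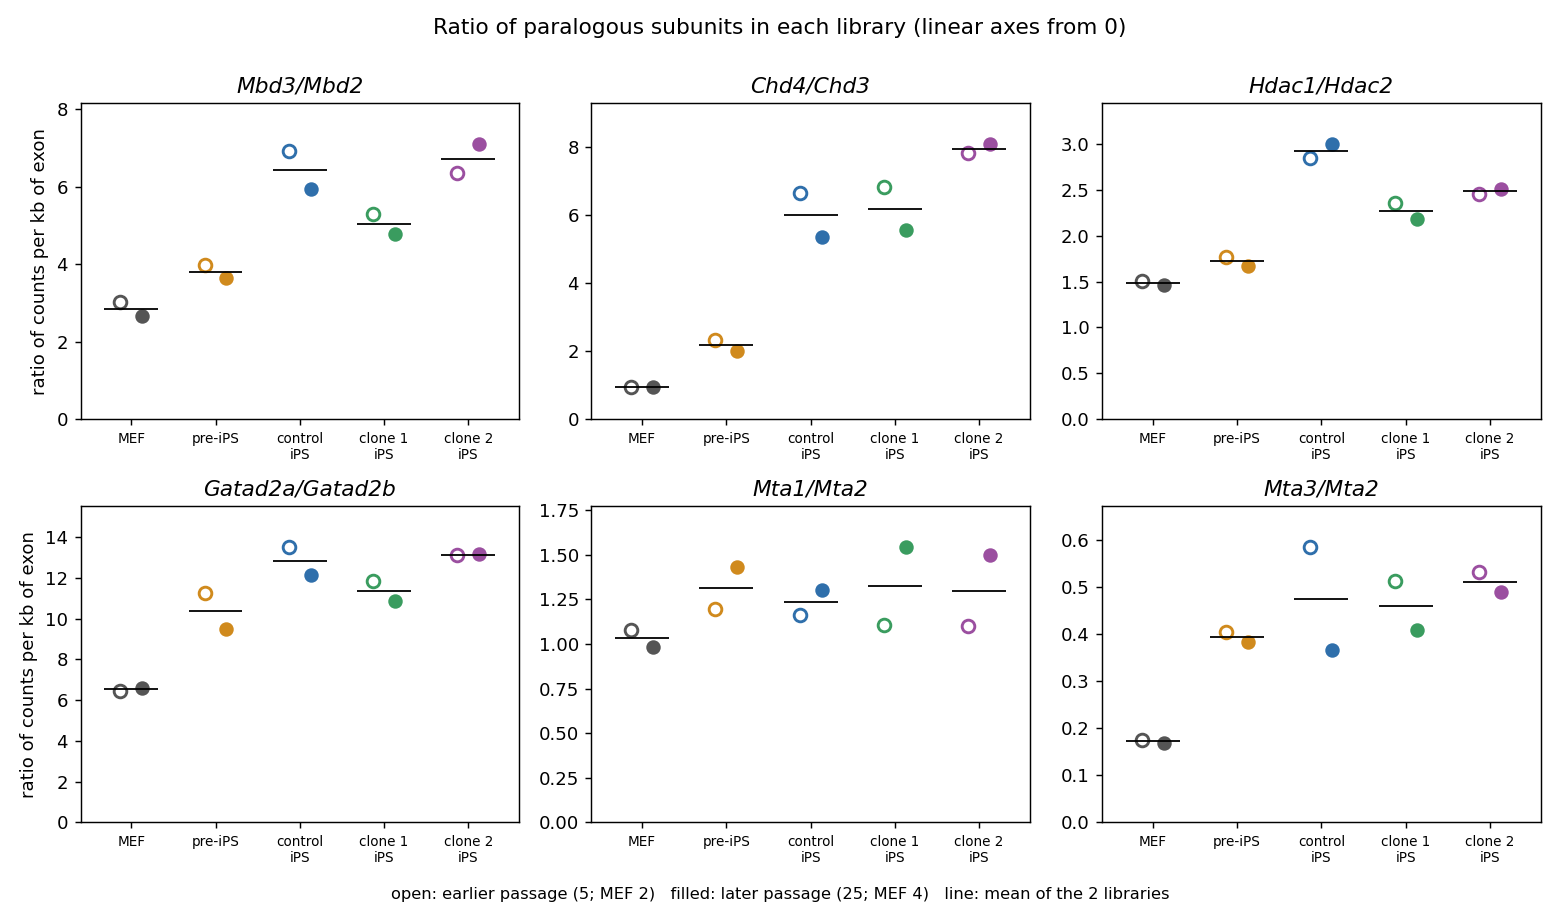
Ratio of normalised counts per kilobase of exon (y axis, linear from 0) for 6 pairs of paralogous subunits in the 5 lines (x axis), with open and filled points for the earlier and later passage and a line at the mean. The Chd4 to Chd3 ratio goes from 0.953 in MEF to 6.71 in the iPS lines, and the Mbd3, Hdac1 and Gatad2a ratios are also lowest in MEF.

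Of 5 further subunits of the complex, 4 passed the test between MEF and the iPS lines, Chd3 higher and the histone chaperones Rbbp4 and Rbbp7 and the small subunit Cdk2ap1 lower, beside 79.3% of all genes. Rbbp4 was 12628 and 13078 in MEF and 14577 to 17636 in the iPS libraries (log2 fold change -0.32 ± 0.077, adjusted p = 0.00465), Rbbp7 10649.9 and 10607 against 12069 to 13403 (-0.26 ± 0.055, adjusted p = 0.00223), and Cdk2ap1 5859 and 5797 against 5795 to 8568 (-0.30 ± 0.087, adjusted p = 0.0117). On the housekeeping scale these 3 had values of 0.073, 0.13 and 0.093 and none was called, whereas after quantile normalisation all 3 were called lower. Between pre-iPS and the iPS lines Rbbp4 was lower (-0.37 ± 0.077, adjusted p = 0.00616), and so was Chd5, a CHD ATPase known mainly from neurons and testis, at 142 and 157 against 204 to 474 (-0.92 ± 0.21, adjusted p = 0.0100). Cdk2ap1, Rbbp4 and Rbbp7 share 60.6%, 17.3% and 11.2% of their 50-base exon words with other annotated genes, so their reads are uncertain.

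Within the iPS state, none of the 10 members separated the Netrin-1 derived lines from the control line after adjustment. They did not pass in limma, beside 4.08% of all genes, nor in edgeR or DESeq2 on the recovered reads, nor with the passage number as a block, where the genes called went from 697 to 1327. Without a control library the genes called fell to 210 (passage 5) or 165 (passage 25). At an unadjusted p under 0.05 limma gave 1 member, edgeR 1 and DESeq2 2. These counts are given without the share of all genes at that p. Hdac2 was the member that limma gave, at 5878 and 5754 in the control and 6206, 6588, 6969 and 6855 in the derived libraries (log2 fold change 0.19 ± 0.061, adjusted p = 0.136). Mbd3 stood at 6709 and 6699.6 in the control and at 5841 to 6439 in the derived libraries (-0.13 ± 0.070, adjusted p = 0.390). For these 2 members the groups did not overlap, which was so for 21.3% of all genes, and the exact permutation p was 0.0667 for Hdac2, the smallest for 2 against 4 libraries, and 0.133 for Mbd3. Chd4 differed by -0.045 ± 0.062, Mta1 by 0.17 ± 0.12, Mbd2 by 0.014 ± 0.095 and Gatad2a by -0.010 ± 0.074. A p that misses the threshold does not show that levels were equal. The SEs were 0.053 to 0.19 over the 10 members, and a difference well above its SE, that of Hdac2 at 0.19 ± 0.061, did not pass. Of the 5 further subunits none passed. Of these, 2, Chd3 and Cdk2ap1, had an unadjusted p under 0.05 in limma, edgeR and DESeq2, again without the share of all genes. With the passage number as a block Cdk2ap1 passed, higher in the derived lines (log2 fold change 0.29 ± 0.067, adjusted p = 0.0426, against 0.135 without the block), and its mean was 7674 in the 4 derived and 6267 in the 2 control libraries.

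Between the 2 clones none of the 10 members passed after adjustment, beside 1.59% of all genes. At an unadjusted p under 0.05 there were 3, a count given without the share of all genes at that p. Gatad2a stood at 7369 and 7661 in clone 1, 8794 and 8351 in the control, and 8883 and 10449 in clone 2 (clone 2 minus clone 1 0.36 ± 0.086, adjusted p = 0.0906). Hdac1 stood at 11228 and 11058 in clone 1 and at 13161 and 13220.2 in clone 2, close to the control at 12880.2 and 13249 (0.24 ± 0.061, adjusted p = 0.101). Mbd2 stood at 1896 and 1981 in clone 1 and at 1641 and 1376 in clone 2 (-0.37 ± 0.11, adjusted p = 0.151). In each of these 3 genes the libraries of the clones did not overlap, which was so for 5 of the 10 members and 42.8% of all genes. DESeq2 called Hdac1 and Gatad2a, edgeR called 0 with 3 at an unadjusted p under 0.05, and leaving out the passage 5 library of clone 2 made Gatad2a pass. Gatad2a lies on chromosome 8, where the median of 861 genes was 0.18 (log2) higher in clone 2 than in the control, with 0.13 at passage 5 and 0.23 at passage 25, against 0.0025 in clone 1 at passage 5 and -0.013 at passage 25. The part of that shift in the value of Gatad2a was not tested. Against the control alone, none of the 10 members passed in either clone with limma or edgeR. In limma 2.48% of all genes passed for clone 1 and 4.15% for clone 2. DESeq2 called Hdac1 for clone 1 and Hdac2 for clone 2, beside 1225 and 1474 of 17075 genes. Between the clones DESeq2 called 1013 genes in all. Limma and edgeR each had 1 member at an unadjusted p under 0.05 in either clone against the control. The share of all genes at that p is not given, so these counts cannot be set against it.

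From passage 5 to passage 25, Mta1 was higher and Mta3 lower in every line of the 4 pre-iPS and iPS lines. Mta1 went from 8075 to 9067 in pre-iPS, from 6659 to 7606 in the control, from 7014 to 9337 in clone 1 and from 7341 to 8471 in clone 2, a log2 fold change of 0.24 ± 0.056 with the line as a block (adjusted p = 0.0360). Mta3 went from 4702 to 4173 in pre-iPS, from 5749.7 to 3664 in the control, from 5569 to 4254 in clone 1 and from 6097 to 4762 in clone 2 (-0.39 ± 0.077, adjusted p = 0.0239). The shifts were 1.18-fold and 1.31-fold. These 2 members were the only ones of the 10 that passed, beside 10.9% of all genes, 3.31% higher and 7.63% lower at passage 25. Those 1869 genes became 233 or 244 without a clone 1 library, 497 or 510 without a pre-iPS library, 1051 or 1049 without a clone 2 library and 8 without the line as a block. Gatad2b was also higher in 4 of 4 lines (0.18 ± 0.060, adjusted p = 0.105) and Mbd3 lower in 4 of 4 (-0.086 ± 0.048, adjusted p = 0.277), without passing. An exact permutation test of 4 pairs cannot give a p under 0.125, which all 4 of these genes reached.

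The passage calls were also made by edgeR and DESeq2 on the recovered reads and on the housekeeping and quantile scales. They rested on few libraries. Without the line as a block neither passed (adjusted p = 0.418 for Mta1 and 0.271 for Mta3), but that fit ignores the pairing and counts differences between lines as spread. Leaving out either library of a line removes its only pair, so the 8 omissions amount to 1 check for each of the 4 lines. The call of Mta1 was lost in every one. The call of Mta3 was lost when any library of clone 1 or clone 2 was left out (adjusted p from 0.0616 to 0.127). Over these fits Mta1 ranged from 0.19 to 0.27 and Mta3 from -0.47 to -0.31. At passage 25 the Mta3 values of the 4 lines, 3664 to 4762, remained above both MEF libraries.

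**Figure D4:**
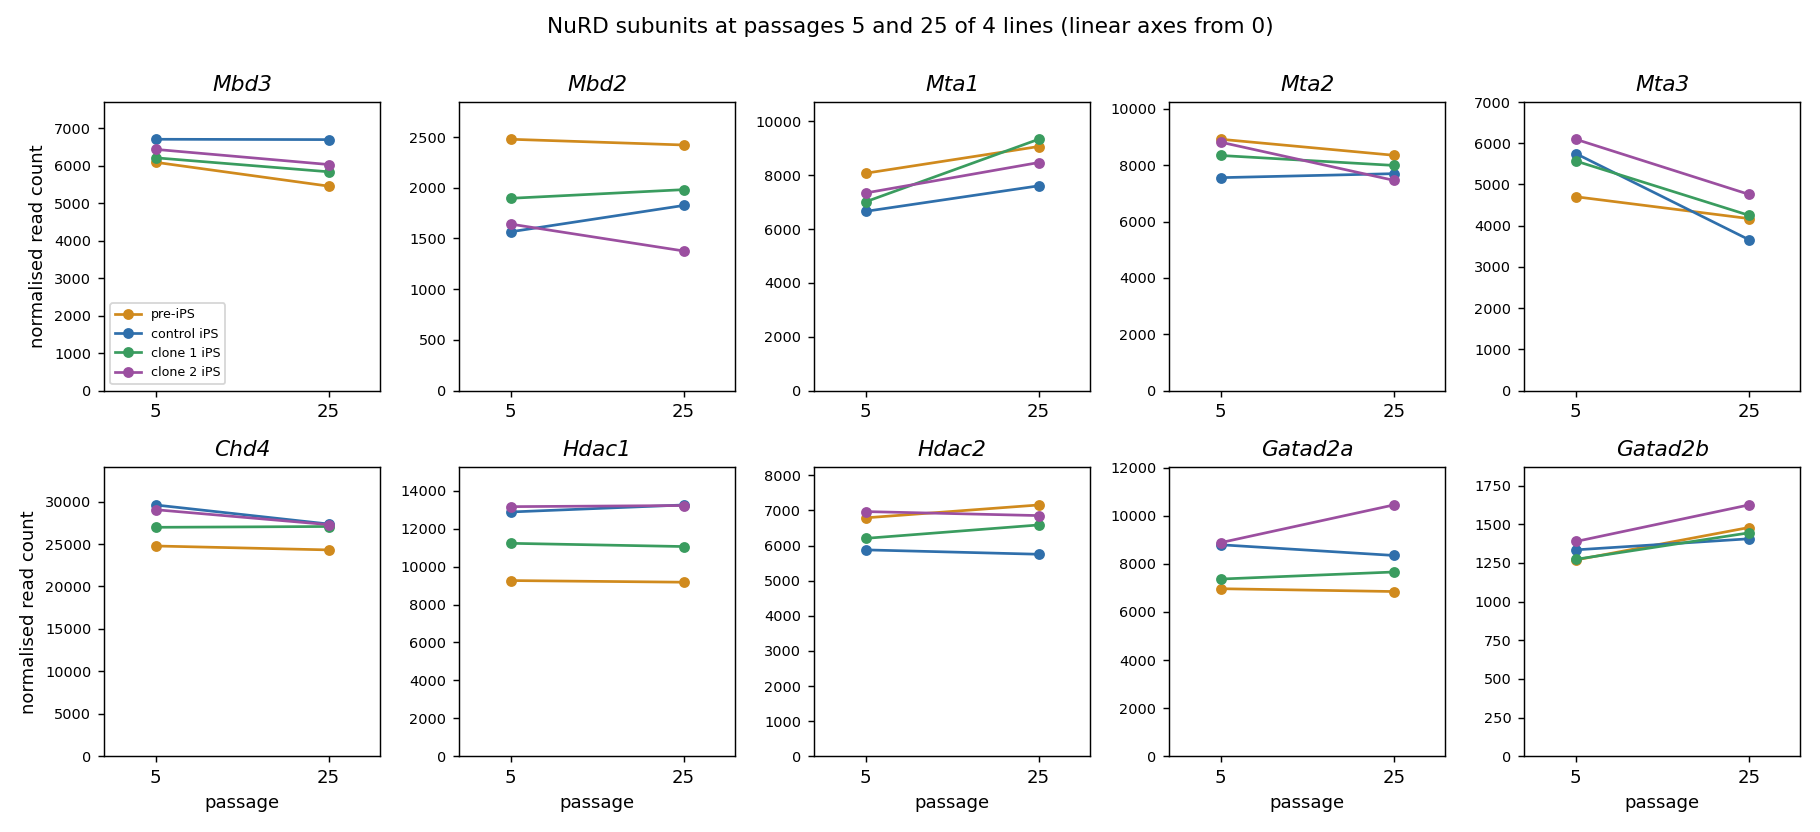
Normalised read count (y axis, linear from 0) of each subunit at passages 5 and 25 (x axis) in the pre-iPS line, the control iPS line and iPS clones 1 and 2, with a line joining the libraries of a line. Mta1 and Gatad2b go up and Mta3 and Mbd3 go down in 4 of 4 lines, and other subunits change in different directions.

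Proteins that recruit or bind NuRD included genes with larger changes between states than any subunit. Of 16 partner genes, 4 were higher and 7 lower in MEF than in the iPS lines, beside 79.3% of all genes called. Their median absolute log2 fold change was 1.20, beside 0.96 for all genes. On the housekeeping scale 6 were higher and 6 lower, beside 8423 and 5387 of 17075 genes. Sall4, a zinc finger factor of pluripotent cells that binds NuRD, stood at 9.40 and 7.42 in MEF, 825 and 879.5 in pre-iPS and 3281 to 5749.7 in the iPS libraries, a log2 fold change of -8.90 for MEF against iPS (adjusted p = 2.23e-09) and -2.39 for pre-iPS against iPS (adjusted p = 9.54e-06). Sall1, a relative of Sall4, stood at 1627 and 1476 in pre-iPS and 3474 to 7501 in the iPS libraries. Sall3 stood at 5.91 and 5.29 in MEF, at 844 and 1177 in pre-iPS and at 203 to 605 in the iPS libraries, so that pre-iPS was the highest state. Zfp296, a zinc finger protein of pluripotent cells, stood at 53.8 and 39.2 in MEF and at 1064 to 1586 in the iPS libraries. In the other direction, Bcl11b stood at 541 and 576 in MEF against 51.2 to 149 in the iPS libraries, and Zfpm2, which recruits NuRD to GATA factors, at 1031 and 992 against 145 to 215. Pwwp2b stood at 2208 and 1987 in pre-iPS against 701 to 1759 in the iPS libraries.

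Other methyl-CpG-binding proteins were mostly higher in MEF, with 7 of 8 higher and 1 lower than in the iPS lines on each of the 3 scales, beside 37.4% of all genes higher and 41.9% lower on the deposited scale. Zbtb4, a zinc finger protein that binds methylated CpG, stood at 4665 and 4598 in MEF, 1485 and 1423 in pre-iPS and 635 to 809.8 in the iPS libraries, a log2 fold change of 2.71 for MEF against iPS (adjusted p = 8.37e-08). Of 24 genes of other complexes that share HDAC1 and HDAC2, or of related deacetylases, 9 were higher and 8 lower in MEF. Of all genes 79.3% were called on that deposited scale. The counts became 16 and 3 on the housekeeping scale, beside 8423 and 5387 of 17075 genes. After quantile normalisation they were 7 and 13, beside 6439 and 7013 genes. Between pre-iPS and iPS, 2 of these 24 were higher and 7 lower. Rcor2, the corepressor of the LSD1 complex found in pluripotent cells, stood at 1993 and 1449 in pre-iPS and at 3456 to 4748 in the iPS libraries (-1.28, adjusted p = 0.000223). Of the 8 methyl-CpG-binding genes 3 were higher and 2 lower in pre-iPS than in iPS, and of the 16 partners 4 were higher and 6 lower, beside 18.7% and 20.8% of all genes.

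Ntn1, the gene the study examined in relation to the complex, stood at 1056 and 1016 in MEF, 11258 and 12274 in pre-iPS, and 3727, 5167 and 6601 in the iPS libraries. The genes closest in pattern to Mbd3 over the 10 libraries, by root mean square difference of centred log2(value + 1), were Ftsjd2 (0.034), Nudcd3 (0.041) and Axin1 (0.044). Those closest to Chd4 were Srsf10 (0.033), Ppia (0.046) and Api5 (0.047), and those closest to Mta1 were Zfp280c (0.068), Trmt112 (0.070) and 2810006K23Rik (0.078).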

How the data were processed

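RNA of 10 libraries was sequenced as poly(A)-selected, unstranded 50-base single reads. Per the submitters' processing notes, the authors used CASAVA 1.8.2, TopHat2 2.0.8b, HTSeq 0.5.3p9, edgeR and the mm10 build, and they deposited a signal table, read counts per gene brought to a common library size (edgeR pseudo-counts, called normalised read count here). No gene in the table had fewer than 10 reads when all libraries were summed. Inverting the adjustment gave whole reads for 100% of values (tolerance 0.1 read).

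Genes that reached 10 in 2 or more libraries (17075) were tested on the log2(value + 1) scale by limma 3.58.1, using lmFit and eBayes with a trend in R 4.3.3, with 1 mean per line over 10 libraries. The iPS mean averaged 3 lines. Passages were compared over 8 libraries with the line as a block. Calls used Benjamini-Hochberg adjusted p under 0.05 over all genes, and a second count asked for a log2 fold change of at least 1. Fold changes are on the log2(value + 1) scale. The script was tested on simulated data. edgeR 4.0.16 (quasi-likelihood, TMM) and DESeq2 1.42.0 on the recovered reads were alternatives, as were other scalings, filters, pseudocounts and fits without single libraries. The study states no test for its sequencing. Passage numbers pair the libraries, since deviations of same-passage libraries correlated in all 6 pairs of lines (r = 0.235 to 0.504), although the fit without the pairing was kept.

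Named genes were all members, the 5 further subunits and, from 3 lists of related genes together, the 3 highest and 3 lowest fold changes among genes with an adjusted p under 0.05 and no overlap of libraries, for MEF and for pre-iPS against the iPS lines. Members and lists were chosen with earlier results of these data known. Exon lengths are GENCODE M21 and promoters RefSeq, with windows for 7 of the 10 members.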

Additional observations from a re-analysis of the deposited data

Results flagged for a closer look

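Chd4 in the 4 Netrin-1 derived libraries had a highest value of 29042 (clone 2, passage 5), whose gap to the nearest other library was 0.848 of the whole range, over the 95% critical value of 0.829 for 4 samples. The other 3 libraries lay between 26969 and 27284, and the control libraries at 29598 and 27356. Chance alone puts about 1 in 20 groups past that limit.

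The clones fell to either side of the control in Gatad2a. Clone 1 stood at 7369 and 7661, below the control at 8794 and 8351, and clone 2 at 8883 and 10449, above it. Clone 2 minus clone 1 was 0.36 (log2), with an adjusted p of 0.0906 in limma. The shift of chromosome 8 genes in clone 2, which stands beside the result above, was not tested for its part in it.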

How the results depend on the processing

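Over 342 alternative values for the 18 results of members that passed, 295 kept direction and side of the threshold, 43 kept direction without passing and 4 reversed. The 4 were MEF minus pre-iPS on the housekeeping scale, at 0.038 for Mta1, 0.18 for Chd4, 0.21 for Hdac1 and 0.037 for Gatad2a. That scale lifts all MEF values, with the median of all genes moving from -0.058 to 0.34. Over the 42 results that did not pass, 41 of 808 alternative values changed sign and 22 passed. With single libraries left out, the number of members that passed ranged from 5 to 6 for MEF against iPS, 2 to 4 for pre-iPS against iPS, 3 to 7 for MEF against pre-iPS, 0 to 0 for derived against control, 0 to 1 for clone 2 against clone 1 and 0 to 1 for passage. A line then had a single library, and for the MEF comparisons these counts stand without the share of all genes. DESeq2 gave 2 members for clone 2 against clone 1, and the passage comparison gave 0 with no line block. With the passage number as a replicate block, 4 members passed for pre-iPS against iPS and 0 for both comparisons among iPS lines, and no call of a member changed, while the further subunit Cdk2ap1 passed for derived against control (adjusted p = 0.0426). With that block the genes called went from 697 to 1327 for derived against control, 424 to 1009 for clone 1 and 709 to 1469 for clone 2 against control, and 271 to 623 between clones. Without single libraries these counts ranged from 165 to 831, 72 to 536, 163 to 611 and 17 to 504, and for pre-iPS against iPS, 6758 genes in all, from 4168 (without the pre-iPS passage 5 library) to 7139. MEF passages share no number with the other lines, so no paired fit was possible there. With 2 libraries a line, small differences among the iPS lines can stay undetected. The part of sequencing depth in this was not tested. The cause of the other changes was not tested.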
